A study of Mus musculus with 2 samples.

Results

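The genes described here are 6 contractile genes, *Tagln*, *Acta2*, *Myl9*, *Cnn1*, *Tpm1* and *Tpm2*, and 4 matricellular genes, *Tnc*, *Postn*, *Tgfbi* and *Thbs2*. They make up 10 of the 28000 genes counted in the libraries. They were chosen by name from their measured levels in these same libraries, after earlier results had shown higher values of several of them in the mesenchymal cells of the KO library, with no threshold on the values. The ratios of KO to WT in mesenchymal cells are therefore a description of how the genes were picked, and nothing is read from their direction.

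The libraries come from a study of the histone chaperone HIRA in the melanocyte lineage. Each holds live cells sorted for the red reporter tdTomato from the trunk skin of mouse embryos at E15.5. The study processed embryos individually, and reported that most but not all sorted cells were positive for the reporter. HIRA KO embryos had the genotype TyrCre::Hira fl/fl:tdTomato and HIRA WT embryos TyrCre::Hira wt/wt:tdTomato, so that both groups carry the Cre recombinase and the reporter. Transcripts were counted near their 3′ end as unique molecular identifiers (UMIs) with the 10x Chromium platform, in 1 library per genotype. Both are labelled with a mixed strain background close to C57BL/6J. The *Tyr* promoter that drives Cre is active in melanoblasts and also in other cells of neural crest origin and in some cells outside the melanocyte lineage, so the sort selected for a history of Cre activity and not for a cell type.

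The contractile genes code for parts of the actin and myosin apparatus of smooth muscle, pericytes and activated fibroblasts, in which smooth muscle actin forms filaments, tropomyosins line them and the regulatory light chain of myosin sets tension. Matricellular proteins are secreted into the extracellular matrix, where they act on adhesion and signalling more than as structural fibres. In embryonic skin both groups are known from connective tissue, vessel walls and, for several of the matricellular proteins, from peripheral nerves.

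The WT library held 1546 barcodes, of which 1540 cells with 7061701 UMIs were kept, and the KO library 846 barcodes, of which 828 cells with 4996580 UMIs were kept. Median depth was 3967.5 UMIs per cell in WT and 5204.5 in KO, and the libraries shared 0 barcodes. *Hira* itself had 82 UMIs in WT (11.6 CPM, the count scaled to the summed UMIs of the cells) and 50 in KO (10.0 CPM), with 35 and 3 UMIs in melanoblast-like cells and 8 and 16 in mesenchymal-like cells. A 3′ count does not read the deleted part of the gene, and *Hira* overlaps another gene on its strand, so these counts do not check the genotype. *Xist*, which is expressed from the inactive X chromosome of females, had 16822 UMIs in WT and 23 in KO, and the Y-linked *Eif2s3y* had 0 and 220. Sex, library and genotype cannot be told apart in any comparison below, which has no replicate check and no test.

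Clusters built without the 10 genes were named from marker lists, and the libraries differed in makeup. Mesenchymal-like cells numbered 217 in WT (14.1% of cells) and 253 in KO (30.6%), glial-like cells 446 (29.0%) and 254 (30.7%), and melanoblast-like cells 536 (34.8%) and 139 (16.8%). Mesenchymal-like cells carried all 9 of their markers in both libraries, led by *Col1a2*, at a summed 19675 CPM in WT and 22548 CPM in KO. They comprised Crabp1-type cells (171 in WT and 98 in KO), Mfap4-type cells (25 and 122) and Mfap5-type cells (21 and 33), each called by its leading marker gene. The cluster of Mfap4-type cells was thus mostly of the KO library and may stand for that library as much as for a type, as may a melanoblast-like cluster of 211 WT and 14 KO cells, a mast cell-like cluster of 92 and 3 and a keratinocyte-like cluster of 4 and 56. Median depth in mesenchymal-like cells was 4414 UMIs in WT and 5330 in KO.

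In mesenchymal-like cells, 9 of the 10 genes had a higher level in KO than in WT, and *Cnn1* had none in either library. The 6 contractile genes together had 299 UMIs in WT (279 CPM) and 831 in KO (557 CPM), a log2 ratio of KO to WT of 0.99 with a 95% interval from 0.80 to 1.19. The 4 matricellular genes together had 528 UMIs in WT (493 CPM) and 1869 in KO (1252 CPM), a log2 ratio of 1.34 (1.20 to 1.49). All intervals given are exact 95% intervals of the counting error alone, and cover neither the embryo nor the library. Of the 9 genes for which the class held at least 20 UMIs over both libraries, 7 were past a log2 ratio of 1 with KO higher, beside 6.22% of the 8117 genes that met that minimum, and 0 were past it with KO lower, beside 3.12%. The 7 were *Tagln*, *Acta2*, *Myl9* and the 4 matricellular genes, of which *Postn* was not past it when cells were thinned at random to 2000 UMIs each (0.88) or as the mean over cells (0.997). *Tagln*, *Tnc* and *Tgfbi*, with 5, 7 and 17 UMIs in WT, met the minimum of 20 only through KO, for which they were chosen. The median log2 ratio was 1.56 over 5 contractile genes and 1.94 over 4 matricellular genes, beside -0.00361 over all genes tested.

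**Figure D1:**
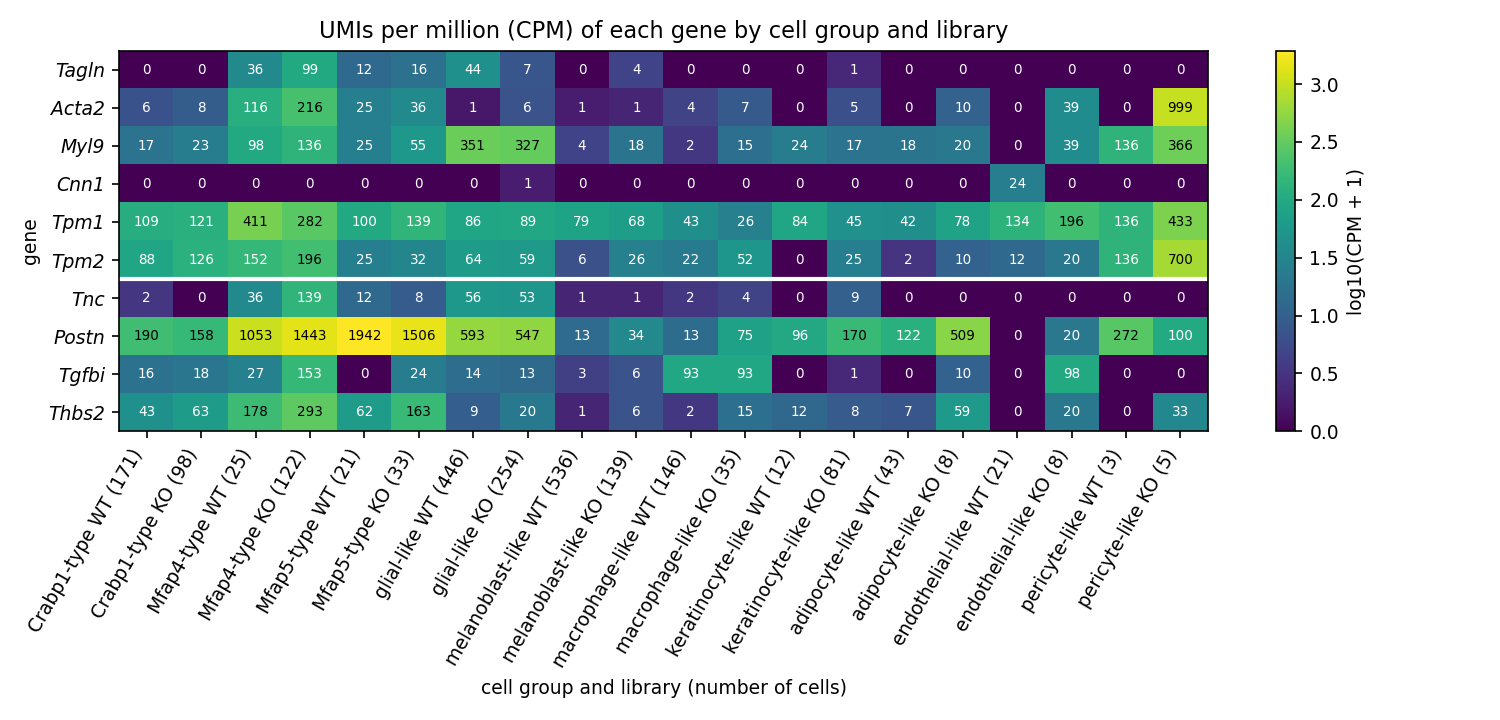
Levels of the 10 genes in CPM, written in each cell and coloured by log10(CPM + 1), for 10 groups of cells in the WT and the KO library, with 1 library per genotype and no error drawn. *Postn* in WT Mfap5-type cells stands at 1942 CPM, and *Cnn1* was at 0 in mesenchymal-like cells of both libraries.

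*Tagln* codes for transgelin, an actin-binding protein of smooth muscle and an early marker of its differentiation. Mesenchymal-like cells held 5 *Tagln* UMIs in WT (4.67 CPM) and 67 in KO (44.9 CPM), which is 9.60-fold (log2 ratio 3.26, 1.97 to 4.93). *Acta2* codes for smooth muscle alpha-actin, and had 20 UMIs in WT (18.7 CPM) and 152 in KO (102 CPM), which is 5.45-fold (log2 ratio 2.45, 1.77 to 3.20). *Myl9* codes for a regulatory light chain of myosin, and had 28 UMIs in WT (26.2 CPM) and 115 in KO (77.0 CPM), which is 2.94-fold (log2 ratio 1.56, 0.95 to 2.21). *Cnn1* codes for the smooth muscle protein calponin. It had 3 UMIs in all kept cells, 2 in WT endothelial-like cells and 1 in a KO glial-like cell, too few to read a ratio.

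*Tpm1* and *Tpm2* code for tropomyosins, which wind along actin filaments in muscle and also in other cells. *Tpm1* had 150 UMIs in WT (140 CPM) and 288 in KO (193 CPM), a log2 ratio of 0.46 (0.17 to 0.75). *Tpm2* had 96 UMIs in WT (89.7 CPM) and 209 in KO (140 CPM), a log2 ratio of 0.64 (0.29 to 1.01). Both were higher in KO by less than the fold used here.

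A single cell weighed on the contractile values. This KO cell, of the Mfap4-type, had UMIs of 4 of the 7 smooth muscle markers (*Myh11* 1, *Actg2* 18, *Des* 4, *Myocd* 1), while *Cnn1* was at 0. It had 10470 UMIs, 2925 genes and 275 UMIs of mesenchymal markers, against a median of 91 in the other KO Mfap4-type cells, and Scrublet did not call it a doublet. It alone held 96 of the 152 *Acta2* UMIs, 27 of the 67 *Tagln* UMIs and 171 of the 831 contractile UMIs of KO mesenchymal-like cells, but 9 of their 1869 matricellular UMIs. Without it the contractile sum was 279 CPM in WT and 445 CPM in KO (log2 ratio 0.67, 0.47 to 0.87), *Acta2* 18.7 and 37.8 CPM (1.01, 0.26 to 1.83) and *Tagln* 4.67 and 27.0 CPM (2.53, 1.19 to 4.23). The direction was the same without the cell, and *Acta2* came to lie next to the fold used here.

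Another 5 Mfap4-type cells, 2 in WT and 3 in KO, had UMIs of at least 3 skeletal muscle markers and few of mesenchymal markers (medians of 2.5 and 3 UMIs). They held 16 contractile UMIs in WT and 43 in KO and 0 matricellular UMIs. Without cells of either kind, *Acta2* stood at 17.9 CPM in WT and 32.8 in KO (log2 ratio 0.87, 0.08 to 1.72), and *Tagln* at 3 UMIs in WT (2.83 CPM) and 40 in KO (27.3 CPM; 3.27, 1.62 to 5.61). Then 6 of 9 genes were past the fold with KO higher, beside 6.04% of 8076 genes, and 0 with KO lower, beside 3.18%. *Acta2* was the gene no longer past it. The median log2 ratio was 0.87 over the contractile and 1.95 over the matricellular genes, beside -0.00836 over all genes. The rule for these cells was chosen after the values had been seen.

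*Tnc* codes for tenascin-C, a matricellular protein of tendon, bone, nerve and healing skin. It had 7 UMIs in WT mesenchymal-like cells (6.54 CPM) and 91 in KO (61.0 CPM), which is 9.32-fold (log2 ratio 3.22, 2.12 to 4.57). *Tgfbi*, a secreted ligand of integrins induced by TGF-beta, had 17 UMIs in WT (15.9 CPM) and 115 in KO (77.0 CPM), which is 4.85-fold (log2 ratio 2.28, 1.54 to 3.11). *Thbs2*, which codes for thrombospondin 2, a protein that acts on collagen fibril assembly and vessel growth, had 63 UMIs in WT (58.9 CPM) and 266 in KO (178 CPM), which is 3.03-fold (log2 ratio 1.60, 1.20 to 2.02). *Postn* codes for periostin, a protein of the periosteum and of collagen-rich connective tissue. It had 441 UMIs in WT (412 CPM) and 1397 in KO (936 CPM), and stood 2.27-fold higher in KO (log2 ratio 1.18, 1.03 to 1.34).

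These class values joined subtypes whose shares differed between the libraries. Mfap4-type cells held 10.5% of the UMIs of WT mesenchymal-like cells and 42.8% of those of KO, and Crabp1-type cells 82.0% and 40.3%. In KO, Mfap4-type cells held 63 of 67 *Tagln* UMIs (94.0%), 89 of 91 *Tnc* UMIs (97.8%), 98 of 115 *Tgfbi* UMIs (85.2%), 187 of 266 *Thbs2* UMIs (70.3%) and 922 of 1397 *Postn* UMIs (66.0%). In WT, 118 of 441 *Postn* UMIs (26.8%) came from Mfap4-type cells, and 14 of 17 *Tgfbi* UMIs from Crabp1-type cells. When the 3 subtypes were weighted equally, the log2 ratio was 0.28 for the contractile and 0.16 for the matricellular sum, and when the KO subtypes were weighted by the WT shares, it was 0.31 and 0.12. Under these weights *Postn* turned to -0.0358 and -0.0661 and *Tpm1* to -0.19 and -0.00806, while *Tagln* came to 1.25 and 1.30, *Tnc* to 1.55 and 1.21 and *Tgfbi* to 2.19 and 1.05. *Acta2* (0.83 and 0.78), *Myl9* (0.62 and 0.52) and *Thbs2* (0.87 and 0.68), like *Postn*, were then no longer past the fold. The second weighting was chosen after the values had been seen.

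Crabp1-type cells were the larger subtype in WT. The contractile sum was 220 CPM in WT and 279 CPM in KO (log2 ratio 0.34, 0.04 to 0.65) and the matricellular sum 252 and 239 CPM (-0.07, -0.39 to 0.24). *Tagln* had 0 UMIs in the 171 WT and 98 KO cells, with exact upper limits of 4.20 CPM in WT and 6.13 CPM in KO, *Acta2* 5 UMIs in each library and *Tnc* 2 and 0. Of the genes with at least 20 UMIs, *Tpm2* had 87.7 CPM in WT against 126 in KO (0.53, 0.05 to 1.00), *Thbs2* at 43.3 and 63.1 CPM (0.54), *Myl9* at 17.1 and 23.3 CPM (0.44), *Tpm1* at 109 and 121 CPM (0.15), *Tgfbi* at 14 and 11 UMIs (0.20, -1.09 to 1.44) and *Postn* at 190 and 158 CPM (-0.27, -0.65 to 0.10). Past the fold with KO higher were 0 of 6 genes, beside 2.63% of 6082 genes, and with KO lower 0, beside 3.93%. The median was 0.32 over the 6 genes and -0.0408 over all genes. At the finer clustering (resolution 2), Crabp1-type cells numbered 51 in WT and 37 in KO. Their contractile sum then had a log2 ratio of 1.02 and their matricellular sum one of 0.60.

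Mfap4-type cells had the higher matricellular sum in KO, while the contractile sums had overlapping intervals. The matricellular sum was 1294 CPM in WT and 2029 CPM in KO (log2 ratio 0.65, 0.40 to 0.91), from 25 and 122 cells. The ratio depended on thinning and on the cells counted. It was 0.12 when each cell was thinned to 2000 UMIs, with 25 WT and 117 KO cells kept, and 0.38 as the mean over cells. When the 5 cells of each library with the most such UMIs were left out, it was 1.15. *Tnc* had 4 UMIs in WT (35.7 CPM) and 89 in KO (139 CPM; 1.96, 0.56 to 3.87), *Tgfbi* 3 UMIs (26.8 CPM) and 98 (153 CPM; 2.52, 0.93 to 4.82), *Thbs2* 20 UMIs (178 CPM) and 187 (293 CPM; 0.71, 0.05 to 1.46) and *Postn* 118 UMIs (1053 CPM) and 922 (1443 CPM; 0.45, 0.18 to 0.74). The WT values of *Tnc* and *Tgfbi* thus rested on 7 UMIs together with wide intervals, and *Postn* was high in both libraries.

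In Mfap4-type cells the direction of the contractile sum and of *Acta2* depended on the cells counted, and that of the sum also on thinning. The contractile sum was 812 CPM in WT and 928 CPM in KO (log2 ratio 0.19, -0.13 to 0.53), and 812 and 672 CPM (-0.27, -0.60 to 0.07) without the KO cell with smooth muscle markers. Thinned it was -0.0607, and without the 5 cells of each library with the most such UMIs 0.33. Other settings drew the subtype differently, with 0.81 at a clustering resolution of 0.5 (55 WT and 159 KO cells) and 0.89 with cells of at least 500 genes (32 and 120). At a resolution of 2 it was 0.71, from 3 and 25 cells, which are the finer cluster described below and include the cell with smooth muscle markers. *Acta2* was at 116 CPM in WT and 216 in KO with all cells (0.90, 0.08 to 1.84), and at 116 and 66.8 CPM without that cell (-0.80, -1.72 to 0.23). Without cells with markers of either muscle, *Acta2* was at 119 and 55.7 CPM (-1.09, -2.08 to -0.01), *Myl9* had a log2 ratio of 0.03 and *Tpm1* of -0.59 (-1.10 to -0.06). *Tagln* had 4 UMIs in WT (35.7 CPM) and 63 in KO (98.6 CPM; 1.47, 0.04 to 3.39). Without the cell with smooth muscle markers it had 4 and 36 UMIs (0.68, -0.80 to 2.63) and was not past the fold, and without cells with markers of either muscle 2 and 36 (1.58, -0.38 to 4.68). *Tpm1* was lower in KO with all cells as well, at 411 CPM in WT against 282 CPM in KO (-0.54, -1.02 to -0.04).

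In Mfap4-type cells 3 of 9 genes (*Tagln*, *Tnc*, *Tgfbi*) were past the fold with KO higher, beside 11.6% of 4166 genes, and 0 with KO lower, beside 3.86%. Without the muscle-marker cells 3 were past it with KO higher, beside 10.7% of 4027 genes, and *Acta2* with KO lower, beside 4.92%. In both readings *Tagln*, *Tnc* and *Tgfbi* met the minimum of 20 UMIs only through KO, with at most 4 UMIs each in WT. The genes were chosen for high values in KO, so no excess over these shares is read. The medians were 0.47 over contractile and 1.34 over matricellular genes with all cells, beside 0.0735 over all genes, and 0.03 and 1.24 without the muscle-marker cells, beside 0.0377. Without those cells the matricellular sum was 1435 CPM in WT and 2108 CPM in KO (0.56, 0.31 to 0.81). It differed little with and without them, whereas the contractile sum and *Acta2* did not keep their sign.

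**Figure D2:**
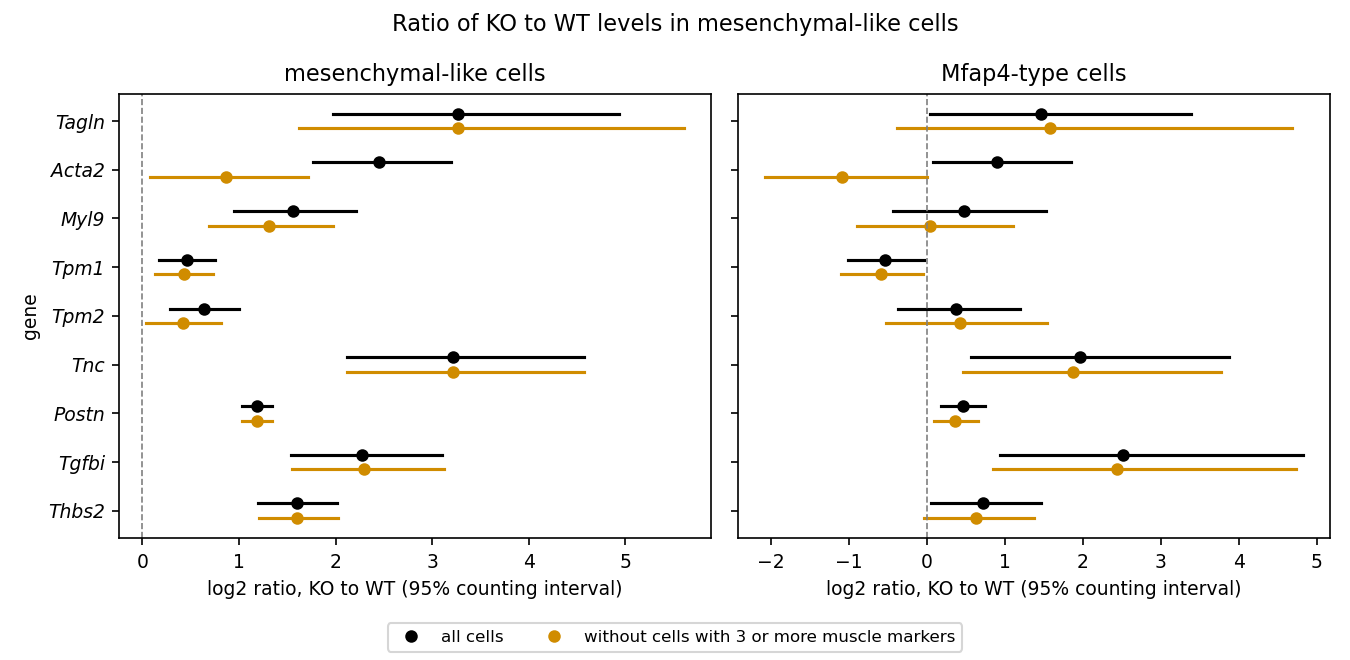
Log2 ratio of KO to WT of 9 genes in mesenchymal-like and Mfap4-type cells, with all cells and without cells that have UMIs of 3 or more muscle markers, where points are ratios of summed UMIs and bars exact 95% intervals of counting error. In Mfap4-type cells *Acta2* went from 0.90 to -1.09, while *Tnc* was at 1.96 and 1.86.

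Mfap5-type cells were the subtype with the highest *Postn* level in WT, while in KO their interval overlapped that of Mfap4-type cells. *Postn* was at 1942 CPM in WT (156 UMIs) and 1506 CPM in KO (380 UMIs), lower in KO (log2 ratio -0.37, -0.64 to -0.09). *Thbs2* went the other way, with 5 UMIs in WT (62.2 CPM) and 41 in KO (163 CPM; 1.38, 0.05 to 3.08). *Tagln* (1 and 4 UMIs), *Acta2* (2 and 9), *Tnc* (1 and 2) and *Tgfbi* (0 and 6) were near the limit of detection in these 21 WT and 33 KO cells. The contractile sum was 187 CPM in WT and 277 CPM in KO (0.57, -0.25 to 1.48) and the matricellular sum 2017 and 1701 CPM (-0.25, -0.51 to 0.02). Of 3 genes with at least 20 UMIs, *Thbs2* was past the fold with KO higher, beside 8.4% of 2261 genes, and 0 were with KO lower, beside 3.89%. The median was 0.48, beside 0.0495 over all genes.

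The share of mesenchymal-like cells with a UMI was read before and after thinning. *Tagln* was found in 3 of 217 WT cells (1.38%) and 20 of 253 KO cells (7.91%), *Tnc* in 7 (3.23%) and 49 (19.4%), *Acta2* in 11 (5.07%) and 24 (9.49%) and *Postn* in 86 (39.6%) and 169 (66.8%). Depth differed between the libraries, so cells were also reduced at random to 2000 UMIs each, without the 9 mesenchymal-like cells in WT and 5 in KO that had fewer. The thinned shares were 0.962% and 3.63% for *Tagln*, 2.88% and 11.7% for *Tnc*, 32.2% and 58.1% for *Postn*, 12.0% and 25.4% for *Thbs2*, 3.85% and 10.9% for *Myl9*, 2.40% and 12.5% for *Tgfbi* and 4.81% and 6.45% for *Acta2*.

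Macrophage-like cells served as the background of free RNA, among them 50 WT and 17 KO cells of a cluster led by *Plac8*, with 4 of 9 macrophage markers raised. Median depths of the macrophage-like cells were 4850.5 UMIs in WT and 6720 in KO. Their thinned shares were 0 of 136 WT and 0 of 35 KO cells for *Tagln*, 1.47% and 2.86% for *Tnc*, 1.47% and 5.71% for *Postn*, 0 and 2.86% for *Thbs2*, 0.735% and 5.71% for *Myl9* and 1.47% and 0 for *Acta2*. The KO shares of *Tnc* and of *Thbs2* are 1 of 35 cells each, and 1 KO macrophage-like cell had all 4 matricellular genes. The upper limits of the KO background were 10.0% for *Tagln* and *Acta2*, 14.9% for *Tnc* and *Thbs2* and 19.2% for *Myl9* and *Postn*, so that of the KO shares in mesenchymal-like cells those of *Postn* and *Thbs2* lay above it, while in WT the shares of *Tagln*, *Tnc*, *Myl9* and *Acta2* were low in both kinds of cell. The background share was higher in KO for *Postn* and *Myl9*, and for *Tnc* and *Thbs2* only through the 1 KO cell with all 4 matricellular genes. The summed mesenchymal markers in macrophage-like cells were 717 CPM in WT and 2691 CPM in KO. The part of this background in the ratios was not tested. *Tgfbi* cannot be read against these cells, since macrophages carry it themselves, with thinned shares of 17.6% and 14.3%.

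Within Mfap4-type cells the thinned shares of WT rested on 25 cells, so no order between the libraries is read from them. *Tagln* was found in 8% of 25 WT and 7.69% of 117 KO cells and *Acta2* in 16% and 9.40%, whereas *Myl9* was found in 8% and 17.1%, *Tnc* in 16% and 24.8%, *Tgfbi* in 8% and 23.1% and *Thbs2* in 32% and 39.3%. The unthinned shares were 8% and 13.9% for *Tagln*, 20% and 13.9% for *Acta2*, 16% and 38.5% for *Tnc*, 12% and 30.3% for *Tgfbi* and 56% and 61.5% for *Thbs2*. For *Tagln* and *Acta2* the thinned shares were no higher in KO although the summed levels were, and no order is read from them. *Postn* was found in most Mfap4-type cells of both libraries before thinning, 88% in WT and 86.9% in KO.

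The joint finding of the genes was read cell by cell in Mfap4-type cells. Of 117 thinned KO cells, 29 had a UMI of *Tnc*, and 18 of these also had *Thbs2* (62.1%, against 31.8% of cells without *Tnc*), 11 *Tgfbi* (37.9% against 18.2%) and 27 *Postn* (93.1% against 72.7%). *Tagln* was found in 9 cells, 4 of which also had *Acta2* (44.4% against 6.48%). Of 25 thinned WT cells 4 had *Tnc*, of which 0 also had *Thbs2* (against 38.1%), 1 *Tgfbi* (25% against 4.76%) and 4 *Postn* (100% against 71.4%), and 2 had *Tagln*, of which 0 also had *Acta2* (against 17.4%). At least 3 of the 10 genes were found together in 18 of 208 thinned WT mesenchymal-like cells (8.65%) and 69 of 248 KO cells (27.8%). Within Mfap4-type cells the shares were 44% of 25 and 49.6% of 117, within Crabp1-type cells 3.64% and 6.12%, and within Mfap5-type cells 5.56% of 18 and 15.2% of 33. Such cells were more frequent in the Mfap4-type than in the Crabp1-type.

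**Figure D3:**
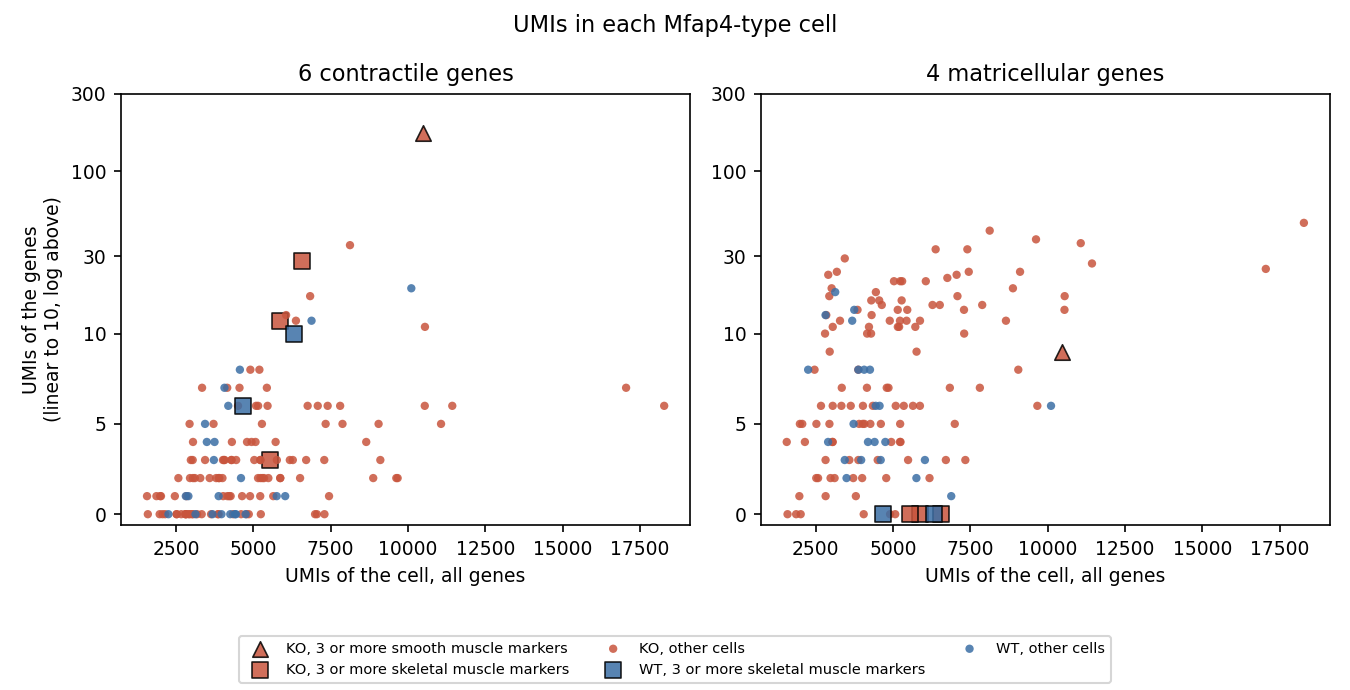
Contractile and matricellular UMIs of each Mfap4-type cell against its total UMIs, for 25 WT and 122 KO cells, where each point is a cell, the triangle the KO cell with smooth muscle markers and squares cells with skeletal muscle markers. The triangle lies at 171 contractile and 9 matricellular UMIs.

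A finer clustering (resolution 2) split off 3 WT and 25 KO cells led by *Sfrp4*, *Tnmd*, *C1qtnf3*, *Mgp*, *Thbs4*, *Sfrp2*, *Chodl* and *Scx*, of which *Scx* and *Tnmd* are known from tendon progenitors. *Tnmd* was found in all 3 WT cells (3320 CPM) but in 8 of the 25 KO cells (282 CPM). *Scx* was found in 3 WT cells (681 CPM) and 11 KO cells (110 CPM), so the 2 genes did not mark all KO cells of the cluster. The KO cells of this cluster held 51 *Tagln* UMIs in 9 cells (400.0 CPM) and 119 *Acta2* UMIs in 6 cells (933 CPM), the cell with smooth muscle markers among them. They also had 322 CPM of *Myl9*, 424 CPM of *Tgfbi*, 243 CPM of *Tnc*, 494 CPM of *Thbs2* and 2188 CPM of *Postn*. Without the cell with smooth muscle markers they had 205 CPM of *Tagln* and 197 each of *Acta2* and *Myl9*. The 3 WT cells of the cluster had 0 UMIs of these 3 genes, each with an exact upper limit of 314 CPM. That limit lies above the KO values without the cell, so no difference is read from the zeros. These WT cells had 1277 CPM of *Tpm1*, 1532 of *Postn*, 170 each of *Tnc* and *Tgfbi* (2 UMIs each) and 85.1 of *Thbs2* (1 UMI). The fine cluster with most of the other Mfap4-type cells held 94 KO cells, which had 20.4 CPM of *Tagln*, 36.6 of *Acta2*, 83.5 of *Tgfbi*, 118 of *Tnc*, 236 of *Thbs2* and 1285 of *Postn*. The 21 WT cells of that fine cluster had 20.8 CPM of *Tagln* (2 UMIs in 1 cell, with skeletal muscle markers), 135 of *Acta2*, 10.4 of *Tgfbi*, 20.8 of *Tnc*, 198 of *Thbs2* and 999 of *Postn*. Without the finer cluster the contractile log2 ratio was 0.54 in mesenchymal-like and -0.37 in Mfap4-type cells. In mesenchymal-like cells *Acta2* then stood at 0.35 and was no longer past the fold. *Tagln* stood at 1.31, and it and the other genes past the fold stayed past it. This cluster was singled out after its values had been seen.

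In glial-like cells *Tagln* was lower in KO. It had 72 UMIs in WT (44.2 CPM) and 8 in KO (6.70 CPM), a log2 ratio of -2.72 (-3.99 to -1.67). The UMIs were spread over 57 of 446 WT cells (12.8%) and 7 of 254 KO cells (2.76%), with at most 5 in a cell, and after thinning over 34 of 409 (8.31%, 5.83 to 11.4) and 4 of 246 (1.63%, 0.445 to 4.11). Macrophage-like cells had 0 *Tagln* UMIs in either library, and melanoblast-like cells 0 in WT and 3 in KO. *Tagln* thus had most of its UMIs in glia in WT and in Mfap4-type cells in KO. Of 8590 glial genes tested, 8583 had a log2 ratio at or above that of *Tagln*. The gene overlaps *Pcsk7* on the other strand, and the study's mapping summary lists antisense reads as a category apart, without saying whether these counts used the strand.

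*Tagln* was read in each of 4 glial-like clusters. In the cluster led by *Fst* it had 48 UMIs in 230 WT cells (65.0 CPM) and 2 in 104 KO cells (5.07 CPM; log2 ratio -3.68, -6.77 to -1.75). In the cluster led by *Pcdh20* it had 11 UMIs in 67 WT cells (38.3 CPM) and 1 in 30 KO cells (5.66 CPM; -2.76, -8.19 to 0.02), and in the cluster led by *Sostdc1* 12 UMIs in 113 WT cells (25.2 CPM) and 5 in 60 KO cells (16.1 CPM; -0.65, -2.51 to 0.96). The interval of the first cluster alone left out 0. The cluster led by *Pou3f1* had 1 UMI in 36 WT and 0 in 60 KO cells. Glial markers summed to 3545 CPM in WT and 3140 CPM in KO over all glial-like cells, with 8 of 8 found, and smooth muscle markers to 61.9 and 61.1 CPM (4 and 3 of 7 found, *Des* the most abundant, *Myh11*, *Synpo2* and *Myocd* at 0 in both and *Lmod1* also at 0 in KO). Pericyte markers summed to 131 and 129 CPM, led by *Mcam*, and mesenchymal markers to 2095 and 3092 CPM. Other lists differed more in these cells, with erythroid markers at 87.7 CPM in WT against 1130 in KO, keratinocyte markers at 83.4 and 495, neutrophil markers at 30.1 and 209 and mast cell markers at 127 and 26.8, and their part in the values was not tested.

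**Figure D4:**
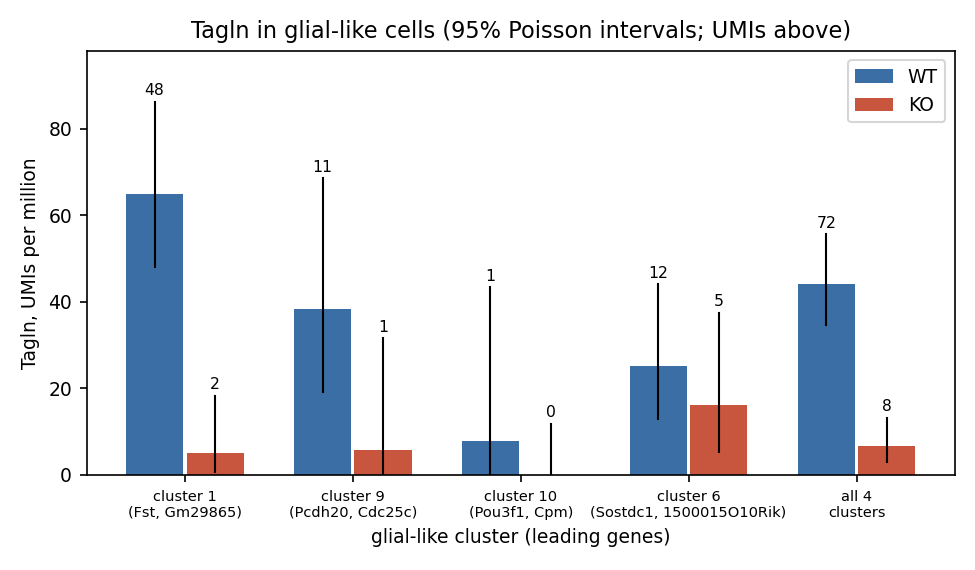
*Tagln* in CPM in 4 glial-like clusters and in all glial-like cells of the WT and KO libraries, where bars are levels over the summed cells and lines exact Poisson 95% intervals of counting error. All glial-like cells stand at 44.2 CPM in WT against 6.70 CPM in KO.

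The other contractile genes did not share this pattern in glia. *Myl9* had 572 UMIs in WT (351 CPM) and 391 in KO (327 CPM; log2 ratio -0.10, -0.29 to 0.09), *Tpm1* was at 86.5 and 88.7 CPM and *Tpm2* at 64.4 and 58.6 CPM. *Acta2* had 1 UMI in WT (0.613 CPM) and 7 in KO (5.86 CPM; 3.26, 0.30 to 8.75), too few to place its level. The contractile sum was 547 CPM in WT and 488 CPM in KO (-0.16, -0.32 to -0.01). Its lower value in KO lay mostly in *Tagln* and *Myl9*.

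Among the matricellular genes, glia carried *Postn* and *Tnc* at like levels in both libraries. *Postn* had 593 CPM in WT against 547 in KO (log2 ratio -0.11, -0.26 to 0.03), *Tnc* at 55.8 and 52.7 CPM (-0.08) and *Tgfbi* at 14.1 and 12.6 CPM, and the matricellular sum at 671 and 633 CPM. *Thbs2* was at 8.59 CPM in WT (14 UMIs) and 20.1 CPM in KO (24 UMIs; 1.23, 0.22 to 2.29). Its KO UMIs lay mostly in the cluster led by *Pou3f1*, with 0 UMIs in WT and 15 in KO (48.0 CPM). With WT set to 3 counts this is 2.05-fold, and the exact lower limit of the log2 ratio is 0.56. In the *Sostdc1*-led cluster, which held all WT UMIs, it had 14 UMIs in WT and 4 in KO (-1.19, -3.26 to 0.48). The *Pou3f1*-led cluster had less *Tnc* in KO, 16 UMIs in WT (125 CPM) and 11 in KO (35.2 CPM; -1.82, -3.08 to -0.63). The *Sostdc1*-led cluster had the highest *Postn* among the glial clusters, 935 CPM in WT and 928 CPM in KO, and *Tnc* at 109 and 128 CPM, while the *Fst*-led cluster had *Postn* at 447 and 325 CPM (-0.46, -0.77 to -0.16). In all glial-like cells 1 of 8 genes (*Thbs2*) was past the fold with KO higher, beside 3.85% of 8590 genes, and 1 (*Tagln*) with KO lower, beside 2.49%. The median was -0.11, beside -0.0109 over all genes.

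Melanoblast-like cells, the lineage that the Cre line is used to mark, held few UMIs of most of the genes. *Tpm1* had 79.2 CPM in WT against 68.2 in KO, and the contractile sum was 89.0 and 116 CPM (log2 ratio 0.39, 0.03 to 0.73). This joined clusters of unlike makeup, in which the ratio of the sum was 0.20 (-0.31 to 0.71; 167 WT and 85 KO cells), 0.76 (0.18 to 1.33; 158 and 40) and, with 1 UMI in KO, -2.38 (-7.70 to 0.15; 211 and 14). Melanoblast-like cells thinned to 2000 UMIs had a mean of 0.189 contractile genes per cell in WT and 0.187 in KO. *Myl9* had 9 UMIs in WT (3.55 CPM) and 15 in KO (17.6 CPM; 2.32), *Tpm2* 14 (5.52 CPM) and 22 (25.9 CPM; 2.23, with 1.05, 2.82 and no UMI in these clusters) and *Postn* 33 (13.0 CPM) and 29 (34.1 CPM; 1.39, 0.62 to 2.16). These 3 of 4 genes were past the fold with KO higher, beside 3.82% of 8141 genes, and 0 with KO lower, beside 4.23%, with a median of 1.81 beside -0.00686 over all genes. In macrophage-like cells these 3 genes were likewise higher in KO. *Postn* was at 13.5 CPM in WT against 74.7 CPM in KO (2.47, 1.34 to 3.68). *Tpm2* was at 22.0 and 52.3 CPM (1.25, 0.13 to 2.34) and *Myl9* at 2.45 and 14.9 CPM (2.61, -0.19 to 6.08), the latter from 2 and 4 UMIs. The part of free RNA in these values was not tested. *Tgfbi* had 76 UMIs in WT (93.0 CPM) and 25 in KO (93.4 CPM; 0.01, -0.71 to 0.68) in macrophage-like cells. These joined a cluster led by *Pf4* (96 WT and 18 KO cells), at 112 and 76.1 CPM (-0.55, -1.58 to 0.35), and one led by *Plac8* (50 and 17), at 44.0 and 118 CPM (1.43, 0.12 to 2.77). In the *Plac8*-led cluster 4 of 9 macrophage markers were raised, and of these only *Lyz2* was among its leading genes.

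The order of the cell groups by level differed among the contractile genes. Of the 6 groups with at least 20 cells in both libraries, *Myl9* was highest in glial-like cells (323 to 381 CPM in WT, 296 to 361 in KO), above Mfap4-type cells (49.0 to 176 in WT, 109 to 168 in KO), and lowest in macrophage-like and melanoblast-like cells. *Acta2* was highest in Mfap4-type cells of both libraries, and its next group, Mfap5-type cells, stood at 24.9 CPM in WT, where the intervals of both overlapped, and 35.7 CPM in KO, followed by 4 groups below 9 CPM whose intervals overlapped. Without the smooth muscle-marker cell, KO Mfap4-type cells had 66.8 CPM of *Acta2* (48.2 to 90.3), and without cells of either muscle 55.7 CPM (38.6 to 77.8). Both intervals overlapped that of KO Mfap5-type cells, which held 9 UMIs. *Tpm1* was highest in Mfap4-type cells (301 to 548 CPM in WT, 242 to 326 in KO), and the Crabp1-type, Mfap5-type, glial-like and melanoblast-like groups below it overlapped in WT. *Tpm2* was highest in Mfap4-type cells and next in Crabp1-type cells. Their intervals overlapped in WT (88.4 to 243 and 69.2 to 109.7 CPM) but not in KO (163 to 233 and 99.5 to 158 CPM). Without the smooth muscle-marker cell the KO Mfap4-type interval of *Tpm2* was 142 to 209 CPM, and without cells of either muscle 105 to 165 CPM. Both of these overlapped that of Crabp1-type cells. *Tagln* in WT had glial-like cells (34.6 to 55.6 CPM) and Mfap4-type cells (9.73 to 91.4 CPM) at the top with overlapping intervals. The WT interval of Mfap5-type cells (0.315 to 69.4 CPM, 1 UMI) overlapped both. In KO Mfap4-type cells (75.8 to 126 CPM) stood above Mfap5-type (4.32 to 40.6 CPM) and glial-like cells (2.89 to 13.2 CPM). Without the smooth muscle-marker cell the KO Mfap4-type interval of *Tagln* was 40.1 to 79.3 CPM and overlapped that of Mfap5-type cells. Without cells of either muscle it was 41.3 to 81.6 CPM and did not. The 5 KO pericyte-like cells, outside this order, had 30 *Acta2* UMIs (999 CPM), 21 of *Tpm2*, 13 of *Tpm1*, 11 of *Myl9* and 0 of *Tagln*, and the 3 WT pericyte-like cells 0 of *Acta2* and *Tagln* and 1 of each of the other 3.

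The group with the highest level differed among the matricellular genes. *Postn* in WT stepped down from Mfap5-type (1649 to 2272 CPM) over Mfap4-type (872 to 1261 CPM) and glial-like (556 to 631 CPM) to Crabp1-type cells (163 to 221 CPM), and in KO the first 2 overlapped (1359 to 1666 and 1352 to 1539 CPM). *Tnc* in WT was highest in glial-like cells (44.9 to 68.5 CPM), overlapping Mfap4-type cells (9.73 to 91.4 CPM) and Mfap5-type cells, which had 1 UMI. In KO Mfap4-type cells (112 to 171 CPM) stood above glial-like cells (40.5 to 67.5 CPM). *Tgfbi* in WT was highest in macrophage-like cells (73.2 to 116 CPM), overlapping Mfap4-type cells (5.52 to 78.2 CPM), and in KO Mfap4-type (125 to 187 CPM) and macrophage-like cells (60.5 to 138 CPM) overlapped. *Thbs2* was highest in Mfap4-type cells of both libraries, overlapping Mfap5-type cells in WT (109 to 276 and 20.2 to 145 CPM) but not in KO (252 to 338 and 117 to 220 CPM). *Postn* also reached 122 CPM in 43 WT and 509 CPM in 8 KO adipocyte-like cells (log2 ratio 2.07, 1.49 to 2.64).

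Markers of other cells that express these genes were low in mesenchymal-like cells and partly moved with the libraries. Smooth muscle markers summed to 29.0 CPM in WT (3 of 7 found, *Smtn* the most abundant, *Myh11*, *Lmod1*, *Synpo2* and *Myocd* at 0) and 62.3 CPM in KO (6 of 7, *Des* the most abundant, *Lmod1* at 0). Pericyte markers summed to 139 CPM in WT (7 of 9, *Ndufa4l2* the most abundant, *Rgs5* and *Higd1b* at 0) and 186 CPM in KO (9 of 9, *Ndufa4l2*). Skeletal muscle markers summed to 53.3 CPM in WT (7 of 9, *Myog*, with *Pax7* and *Tnnc1* at 0) and 123 CPM in KO (8 of 9, *Actc1*, with *Pax7* at 0). All 3 sums were higher in KO, as the contractile sum was. In Mfap4-type cells smooth muscle markers summed to 53.5 CPM in WT (3 of 7) and 110 CPM in KO (6 of 7), while skeletal muscle markers (411 and 275 CPM, 6 and 8 of 9) and pericyte markers (250 and 200.4 CPM, 7 and 8 of 9) were lower in KO. Beyond the values without muscle-marker cells given above, the part of these cells in the results was not tested.

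Marker lists of other cells were also read in mesenchymal-like cells. Endothelial markers were even at 38.3 CPM in WT (5 of 8 found, *Egfl7* the most abundant, *Emcn*, *Tie1* and *Esam* at 0) and 38.8 CPM in KO (7 of 8, *Pecam1*, with *Tie1* at 0), as were adipocyte markers at 63.6 and 69.0 CPM (2 and 3 of 7, *Fabp4*) and chondrocyte markers at 19.6 and 22.1 CPM (3 and 2 of 7, *Sox9*). Higher in KO were erythroid markers at 83.2 and 1217 CPM (4 and 6 of 7, *Hbb-bs*, with *Alas2* at 0 in WT and *Hbb-y* in both), keratinocyte markers at 50.5 and 417 CPM (5 and 9 of 9, *Krt10*, with *Krt15*, *Epcam*, *Perp* and *Trp63* at 0 in WT), neutrophil markers at 29.0 and 221 CPM (4 and 6 of 6, *S100a8*, with *Ltf* and *Elane* at 0 in WT) and glial markers at 184 and 291 CPM (8 of 8, *Gap43*). Lower in KO were melanoblast markers at 356 and 206 CPM (8 and 7 of 8, *Dct*, with *Tyrp1* at 0 in KO), macrophage markers at 168 and 87.1 CPM (9 of 9, *Pf4* in WT and *Lyz2* in KO), neuron markers at 138 and 61.6 CPM (3 and 4 of 6, *Stmn2*, with *Elavl3* at 0 in both) and mast cell markers at 111 and 18.8 CPM (5 and 4 of 7, *Cma1*, with *Fcer1a* and *Gata2* at 0 in both). The part of these sums in the values of the 10 genes was not tested.

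Other genes of the same apparatus were read from lists. Of 22 further actomyosin and smooth muscle genes, 17 had at least 20 UMIs in mesenchymal-like cells, and 3 were past the fold with KO higher and 0 with KO lower, beside 6.22% and 3.12% of all genes tested there, with a median log2 ratio of 0.22, and 7 of the 22 are also smooth muscle markers of the list given above. These were *Actg2*, smooth muscle gamma-actin, with 1 UMI in WT and 19 in KO (3.77, 1.11 to 9.14), *Des*, the muscle intermediate filament desmin, with 3 and 40 (3.26, 1.61 to 5.59), and *Mylk*, the myosin light chain kinase, with 11 and 37 (1.27, 0.27 to 2.39). Of the 19 KO *Actg2* UMIs, 18 lay in the cell with smooth muscle markers. Without the muscle-marker cells 16 genes were tested and 2 were past the fold, *Des* with 1 and 32 UMIs (4.53) and *Mylk* (1.03), beside 6.04% of all genes, and the median was 0.11.

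Of 16 other matricellular genes, 10 were tested in mesenchymal-like cells, 4 were past the fold with KO higher and 0 with KO lower, beside the same 6.22% and 3.12%, with a median of 0.96. These were *Thbs4* (log2 ratio 2.92), *Thbs3* (1.93) and *Thbs1* (1.15), which code for other thrombospondins, and *Tnxb* (1.49), which codes for tenascin-X. Of 18 genes of the TGF-beta pathway, 17 had a single entry in the files and were used, 14 were tested, and 6 were past the fold with KO higher and 0 with KO lower, beside these same shares, with a median of 0.83. Among them were *Ltbp3* (1.77) and *Ltbp1* (1.33), which bind latent TGF-beta in the matrix, the ligand *Tgfb3* (1.52) and *Smad3* (1.22), which carries the signal to the nucleus. Of 10 genes of receptors for tenascin, periostin and thrombospondin, 8 were tested, and the integrin subunit *Itgb3* (1.77) was past the fold with KO higher and *Itga9* (-1.40) with KO lower, beside 6.22% and 3.12% again, with a median of 0.13. Within subtypes the medians of the matricellular and TGF-beta lists were 0.08 and 0.05 in Crabp1-type and 0.31 and 0.55 in Mfap4-type cells.

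Within Crabp1-type cells none of the 4 lists had a gene past the fold in either direction, beside 2.63% of all genes with KO higher and 3.93% with KO lower. Within Mfap4-type cells 5 of 14 actomyosin, 2 of 10 matricellular, 2 of 7 TGF-beta and 1 of 4 receptor genes were past it with KO higher and 0 with KO lower, beside 11.6% and 3.86% of all genes. Without the muscle-marker cells 1 of 13 actomyosin genes was past it with KO higher, with a median of -0.22, and 3 of 10 matricellular, 2 of 7 TGF-beta and 1 of 4 receptor genes, beside 10.7%. In glial-like cells 0 of 14 actomyosin and 0 of 4 matricellular genes were past it, *Eng* (-1.80), a TGF-beta co-receptor, was the 1 of 10 TGF-beta genes past it, with KO lower, and of 8 receptor genes the integrin subunits *Itga8* (1.79) and *Itgb5* (1.11) were past it with KO higher and *Sdc4* (-1.21) with KO lower, beside 3.85% of all glial genes tested with KO higher and 2.49% with KO lower. The genes past the fold outside mesenchymal-like cells were named after their values had been seen.

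Over 26 units, each a cluster in 1 library with at least 20 cells, the genes whose log2(CPM + 10) was most like that of the contractile sum among 10383 genes were *Fxyd6* (Pearson r 0.902), *Pfn2* (0.892), *Tspan3* (0.888), *Cald1* (0.888) and *Plpp1* (0.878). For the matricellular sum they were *Rarres2* (0.905), *Olfml3* (0.888), *Itih5* (0.887), *Cdc42ep5* (0.884) and *Col16a1* (0.880). The units share libraries and differ in depth, so these are descriptions over cell groups. Among the members, *Acta2* and *Thbs2* were most alike (0.839), *Myl9* and *Tnc* followed across the groups (0.757), and *Acta2* and *Myl9* were least alike (0.136). Of the other contractile pairs, *Myl9* and *Tpm1* were at 0.318 and the rest lay between 0.519 and 0.638. The matricellular pairs ranged from 0.267 to 0.729.

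The 10 genes lie on 7 chromosomes of GRCm38 in the GENCODE M21 annotation, each as 1 gene from first to last exon, and 3 of the contractile genes share chromosome 9. *Tagln* (ENSMUSG00000032085) lies at chr9:45929619-45936058 on the minus strand, *Cnn1* (ENSMUSG00000001349) at chr9:22099216-22109630 on the plus strand and *Tpm1* (ENSMUSG00000032366) at chr9:67022590-67049406 on the minus strand. *Acta2* (ENSMUSG00000035783) lies at chr19:34241090-34255590 on the minus strand, *Myl9* (ENSMUSG00000067818) at chr2:156775420-156781658 on the plus strand and *Tpm2* (ENSMUSG00000028464) at chr4:43514711-43523765 on the minus strand. *Tnc* (ENSMUSG00000028364) lies at chr4:63959785-64047015 on the minus strand, *Postn* (ENSMUSG00000027750) at chr3:54361109-54391037 on the plus strand, *Tgfbi* (ENSMUSG00000035493) at chr13:56609523-56639562 on the plus strand and *Thbs2* (ENSMUSG00000023885) at chr17:14665500-14694235 on the minus strand.

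Promoters, from 250 bases before to 50 after the start in RefSeq on GRCm38.p6, were read for 9 of the 10 genes, all but *Tagln*, and searched on both strands. The CArG box, the motif bound by serum response factor, was found in *Myl9* alone, at -161 to -152, and in 535 of 32851 promoters (1.63%). TATAAA was found in *Tnc*, in *Thbs2* and in the second *Postn* entry (4473 promoters, 13.6%), the last at -26 to -21, and CATTCC, a motif of TEAD factors, in *Acta2* at -146 to -141 and in *Tpm1* at -56 to -51, both on the strand opposite to the gene (4817 promoters, 14.7%). The stretch of the *Myl9* promoter with the CArG box, at chr2:156775278-156775337 on the plus strand, is printed as the only stretch of these promoters that held the box, which the capitals mark. A match is a description and neither a site nor a cause.
*Myl9*: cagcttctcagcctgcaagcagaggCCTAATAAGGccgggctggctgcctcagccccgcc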

How the data were processed

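The authors deposited UMI counts per gene and cell barcode for 1 HIRA WT and 1 HIRA KO library, made with Cell Ranger 2.2.0 on mm10 per the submitters' processing notes, with tdTomato and Cre sequences added, and without normalization. The groups were taken from the genotype labels. Cells with at least 100 genes, at most 40000 UMIs and at most 10% mitochondrial UMIs were kept, as in the study's methods, and genes found in at least 3 cells were clustered on. Of 2000 variable genes, 1991 were used after 19 genes (the 10 described, sex-linked genes, *Hira* and reporters) had been held out, with 30 components, 15 neighbours, Leiden resolution 1 and seed 0, which gave 21 clusters.

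Clusters were named by their marker lists. A marker found in 10% or more of the cells, with a CPM (10 added) that exceeded that of the remaining cells by 1 log2 unit or more, was taken as raised, and the list with the largest raised share, and 3 or more raised markers, gave the name. No name was given where the leading genes held more markers of another list than of the chosen one. This left unnamed a cluster of 12 WT and 16 KO cells led by *Stmn2* and *Ebf1*, with 4 mesenchymal markers raised. Of its leading genes only *Stmn2*, on the neuron list, was on any marker list. Doublets were called with Scrublet and kept, 9 in WT (0.584%) and 6 in KO (0.725%), of which 4 and 2 were mesenchymal-like. Macrophage-like cells that were shallower than 2000 UMIs and left out by thinning numbered 10 in WT and 0 in KO.

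UMIs were summed per group of cells and library and scaled to CPM, with exact Poisson intervals, shares were given with Clopper-Pearson intervals and log2 ratios with exact conditional binomial intervals, all of 95%. With 1 library per genotype no test was made. A library at 0 was set to 3 counts. Genes with at least 20 UMIs in a group over both libraries were read against a log2 ratio of 1, and the ratio scripts were tested on simulated data. A gene could meet this minimum through 1 library alone. The text names all 10 genes, *Hira* and the sex-linked genes, up to 5 genes past that fold of each pathway list, and the 5 genes most like each sum among those with at least 50 UMIs. Genes outside this rule are said to have been named after their values were seen, or are leading genes and markers of cells. A few single genes of the lists are not reported here. The members and lists were chosen with earlier results of these data known.

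Alternatives were clustering resolutions of 0.5 and 2, at least 500 genes per cell, doublets left out, thinning to 2000 UMIs, the mean over cells, the 5 cells with the most UMIs left out and equal weights of subtypes. Those added after seeing the data weighted KO subtypes by WT shares, left out a fine cluster or muscle-marker cells, or counted the unnamed cluster as mesenchymal-like. Coordinates are from GENCODE M21 on GRCm38, the assembly that mm10 names, and promoters from RefSeq. Cells were clustered with scanpy 1.11.5 and igraph 0.11.9 on anndata 0.12.19 in Python 3.11.15, intervals came from scipy 1.17.1, tables from pandas 2.3.3 and numpy 2.4.6, and plots from matplotlib 3.10.9.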

Additional observations from a re-analysis of the deposited data

Results flagged for a closer look

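*Tagln* had a log2 ratio of KO to WT of 3.26 in mesenchymal-like cells and of -2.72 in glial-like cells. The signs differ, but the genes were chosen for their values in mesenchymal-like cells, so nothing is read from the direction there. The contractile sum had a log2 ratio of 0.99 in mesenchymal-like and 0.39 in melanoblast-like cells, and of -0.16 in glial-like cells. The differences between the cell types were not tested, and with 1 library per genotype they have no replicate check.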

How the results depend on the processing

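For the contractile and matricellular sums, 28 of 98 alternatives left the value as it was. Of the other 70, 47 lay within the counting interval of the value reported, and 23 did not. In mesenchymal-like cells the contractile log2 ratio was 0.78 thinned, 0.74 without the 5 cells with the most UMIs, 0.28 with equal subtype weights, 0.31 with KO weighted by WT shares, 0.54 without the fine cluster, 0.67 without the smooth muscle-marker cell and 0.66 without cells with markers of either muscle. The matricellular log2 ratio there was 1.08 thinned, 0.16 with equal weights, 0.12 with KO weighted by WT shares and 1.15 without the fine cluster. In Mfap4-type cells the contractile log2 ratio was 0.81 at resolution 0.5, 0.71 at resolution 2, 0.89 with at least 500 genes per cell, -0.37 without the fine cluster, -0.27 without the smooth muscle-marker cell and -0.26 without cells of either muscle, and the matricellular one 0.12 thinned, 0.38 as the mean over cells and 1.15 without the top 5 cells. In Crabp1-type cells the contractile value was 1.02 and the matricellular value 0.60 at resolution 2, and the latter -0.43 without the top 5 cells.

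For single genes, 2 of 133 alternatives left the value as it was, 106 lay within the interval, 21 lay outside it in the same direction and 4 turned. With equal weights *Tpm1* was at -0.19 and *Postn* at -0.0358, and with KO weighted by WT shares *Tpm1* at -0.00806 and *Postn* at -0.0661. The causes were not tested. In mesenchymal-like cells *Tagln* ranged from 1.25 to 4.01, *Tnc* from 1.21 to 4.59, *Acta2* from 0.35 to 2.50 and *Tgfbi* from 1.05 to 2.93, and *Tagln* in glial-like cells from -4.40 to -2.35 over 8 alternatives. *Tagln* had no value without the 5 top cells, which left WT at 0, nor had Mfap5-type cells at resolution 0.5. The alternatives with WT shares, the fine cluster, muscle-marker cells and the unnamed cluster, and those for *Tagln* in glial-like cells, were chosen after seeing the data.

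Depth limits the WT values of *Tagln*, *Tnc* and *Tgfbi*, which rest on 5, 7 and 17 UMIs in mesenchymal-like cells. The intervals cover counting error alone. No paired analysis was possible because each genotype has 1 library.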
